A study of Mus musculus with 4 samples.

Results

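The genes of MHC class II antigen presentation were followed across 4 sorted populations of mouse bone marrow. The 9 genes are H2-Aa, H2-Ab1, H2-Eb1, H2-Oa, H2-Ob, H2-DMa, Cd74, Ciita and Cd72, of 18194 genes named on the array. They were found as all probe sets annotated with 1 of these symbols and no other gene, which gave 17 probe sets of 34958 that name exactly 1 gene. The groups were Fbw7-deficient LSK cells, wild-type LSK cells, Fbw7-deficient MP cells and wild-type MP cells, with 1 Affymetrix array each. LSK cells are the Kit- and Sca1-positive cells among lineage-negative marrow, where blood stem cells are found, and MP cells are myeloid progenitors with Kit but without Sca1. Mice of both genotypes had received 3 injections of polyI:C, a double-stranded RNA, at 20 ug per g, and marrow was taken 2 weeks later and pooled from 3 mice per genotype before the sort. The labels name neither the deleted part of the gene Fbxw7, nor what drives its deletion, nor the strain or age of the mice, and each genotype had a single pool from which both populations were sorted.

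Class II molecules are pairs of an alpha and a beta chain that display peptides from the endocytic pathway to helper T cells. They are made mainly by B cells, dendritic cells and activated macrophages. The invariant chain guards the peptide groove until H2-DM exchanges its remnant for peptide, and H2-O inhibits H2-DM. Most genes of the pathway share a promoter module of X and Y boxes, on which the coactivator CIITA acts through the RFX and NF-Y factors. Cd72 differs from the other 8 genes: it encodes an inhibitory lectin-like receptor of B cells and has no part in peptide loading.

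The promoter stretches of H2-Ob, H2-Oa, H2-Aa and H2-Eb1 are shown because these genes differ in how far their RNA differed between genotypes while each holds a Y box. They are from RefSeq on GRCm38.p6 and run 5′ to 3′ on the gene's strand over the 100 bases from 130 to 31 before the annotated start: H2-Ob at chr17:34238775-34238874 (plus strand), H2-Oa at chr17:34092249-34092348 (plus strand), H2-Aa at chr17:34287854-34287953 (minus strand) and H2-Eb1 at chr17:34305737-34305836 (plus strand). Capitals mark matches to the Y core ATTGG, the X1 core CCNAGNNAC and the X2 core TGACG, each searched on both strands.
H2-Ob: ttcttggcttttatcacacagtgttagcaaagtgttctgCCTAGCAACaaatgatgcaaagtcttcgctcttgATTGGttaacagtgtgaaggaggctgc
H2-Oa: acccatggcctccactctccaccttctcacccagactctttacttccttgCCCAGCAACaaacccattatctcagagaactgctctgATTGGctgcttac
H2-Aa: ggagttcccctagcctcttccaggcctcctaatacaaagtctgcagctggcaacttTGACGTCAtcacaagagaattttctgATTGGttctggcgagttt
H2-Eb1: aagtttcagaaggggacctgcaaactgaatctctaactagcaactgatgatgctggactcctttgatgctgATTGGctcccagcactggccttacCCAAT

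In H2-Ob the X1 core began 91 bases and the Y core 57 bases before the start, and in H2-Oa they began 80 and 43 bases before it. The X2 core of H2-Aa matched on both strands, and those matches overlap. A match to the X1 core letters in H2-Aa lay further out, 180 to 172 bases before the start, beyond the stretch shown. Whether that match is an X box was not tested. The window of H2-Eb1 had no match to the X1 core, which says only that these letters are not there. Of all 32851 promoter windows of 250 bases before to 50 after a start, 37.4% held the Y core, 17.3% the X1 core, 20.8% the X2 core and 0.317% an X1 core at most 45 bases before a Y core on the gene's strand. The windows of H2-Ob and H2-Oa were among that last group. Windows were found for 6 of the 9 genes. Of the 2 windows of H2-DMa, 1 held a Y core alone and the other none of the motifs, and the window of Cd72 held an X2 core alone. A match is a description of letters and was not tied to binding by any measurement here.

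The deposited values are linear intensities made by RMA, and differences are given as log2 of the ratio of 2 arrays, with 2-fold as a log2 difference of 1. With no replicate there is no error and no test, and the number of arrays limits the precision: each difference lies between single arrays. The median intensity of all probe sets was between 155 and 159 on the 4 arrays. Genes were counted if at least 1 of their 4 values lay at or above 157, the median over all probe sets and arrays, which 12240 genes and 8 of the 9 members did. Each gene was counted on its probe set with the highest mean. The sorted populations were checked against their markers: in wild-type cells 10 of 10 measured LSK markers were higher in LSK than in MP (median log2 1.44), and 11 of 11 MP markers were lower (median log2 -1.46). Of 12 LSK markers named, 10 were measured. Ly6a, the gene of Sca1 that separates the populations, was not among them. Kit, which both populations carry, was among the 10, at log2 0.05. For Gapdh, the control signal near the 3' end of the transcript over that near the 5' end, which is higher where RNA or its copies are shortened, was 2.75 in Fbw7-deficient LSK, 4.30 in wild-type LSK, 2.95 in Fbw7-deficient MP and 2.60 in wild-type MP. Its part in the LSK differences was not tested. In sorted bulk cells, fewer cells of a type and less RNA per cell cannot be told apart.

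The RNAs of H2-Aa, H2-Ab1, H2-Ob and Cd72 were at least 2-fold lower in Fbw7-deficient cells than in wild-type cells of both populations, on the brightest probe set of each. With the mean of all probe sets of a gene, H2-Aa in LSK (log2 -0.80) and H2-Ab1 in LSK and MP (log2 -0.84 and -0.97) no longer passed 2-fold. With that mean, 2 members were 2-fold lower in LSK, against 1.22% of all genes. H2-Ob was at log2 -0.20 in both populations on a probe set that names a further gene. The members were chosen with earlier results of these data known, so the shares of all genes given beside them are a description, not a test. All 8 members above the level filter lay below 0 in both genotype comparisons, which 31.1% of all 12240 genes did. In LSK, 4 of the 8 (H2-Ob, H2-Ab1, Cd72 and H2-Aa) were at least 2-fold lower and none was 2-fold higher. Among all genes 1.95% were 2-fold lower and 1.79% 2-fold higher in this comparison. In MP, 5 of the 8 (the same 4 and Cd74) were at least 2-fold lower, against 1.49% of all genes, and none was 2-fold higher, against 0.825%. The 4 genes past 2-fold in both populations stand among 55 such genes (0.449%). The median log2 difference over the 8 genes was -1.04 in LSK and -1.18 in MP, where the median of all genes was 0.00 in both.

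**Figure D1:**
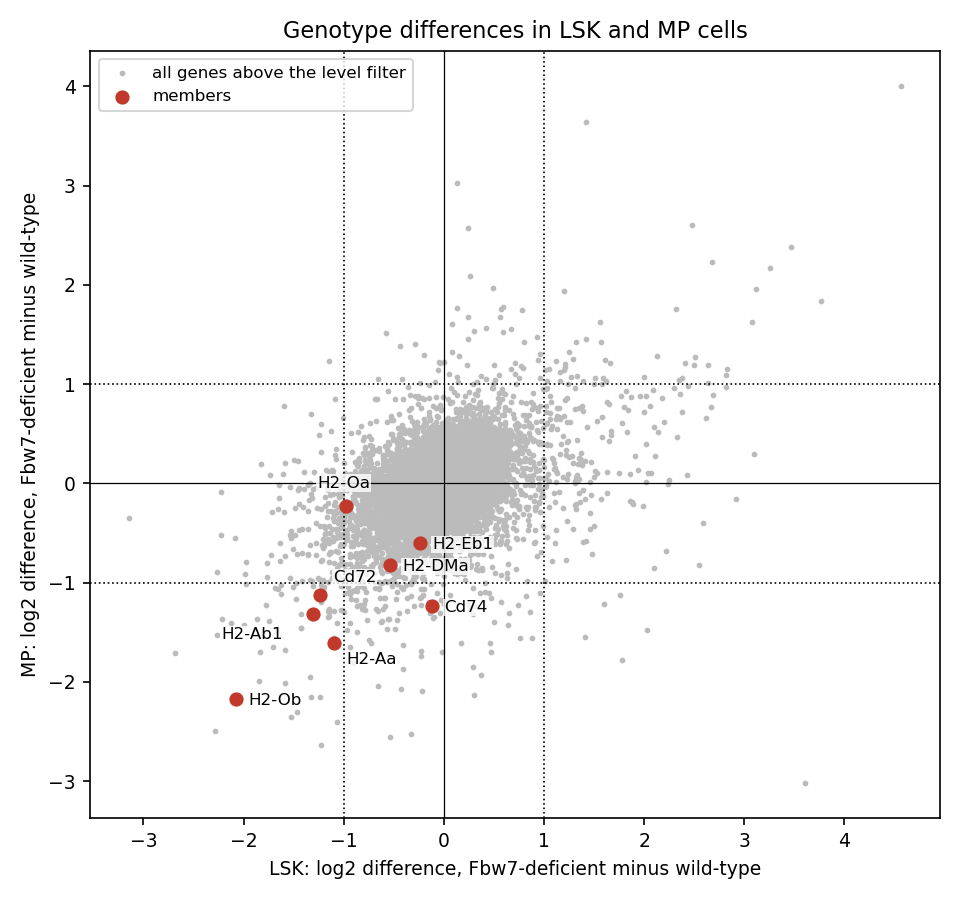
Log2 difference of Fbw7-deficient minus wild-type in LSK cells (horizontal) against the same in MP cells (vertical) for all genes above the level filter (grey) and the 8 members above it (red); dotted lines mark 2-fold. All 8 members lie at the lower left, below 0 on both axes, with H2-Ob at -2.07 and -2.17, and Cd74 near the vertical axis at -0.12 and -1.23.

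Apart from Ciita, every member probe set gave the same direction. Among these, 14 of 14 member probe sets lay below 0 in both comparisons, with log2 differences from -2.07 to -0.12 in LSK and from -2.17 to -0.23 in MP. Of all one-gene probe sets above the filter, 48.5% were below 0 in LSK and 51.1% in MP. The 14 come from 8 genes, and probe sets of 1 gene read the same gene on the same arrays, so they are not independent. The dimmest probe set of H2-Aa, among the 14, lay under the filter. The size differed between probe sets of 1 gene, as described for each gene. Of the 17 probe sets, 13 reached the level filter. In LSK 4 of these 13 were at least 2-fold lower and in MP 6 were, against 1.87% and 1.35% of all one-gene probe sets above the filter.

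**Figure D2:**
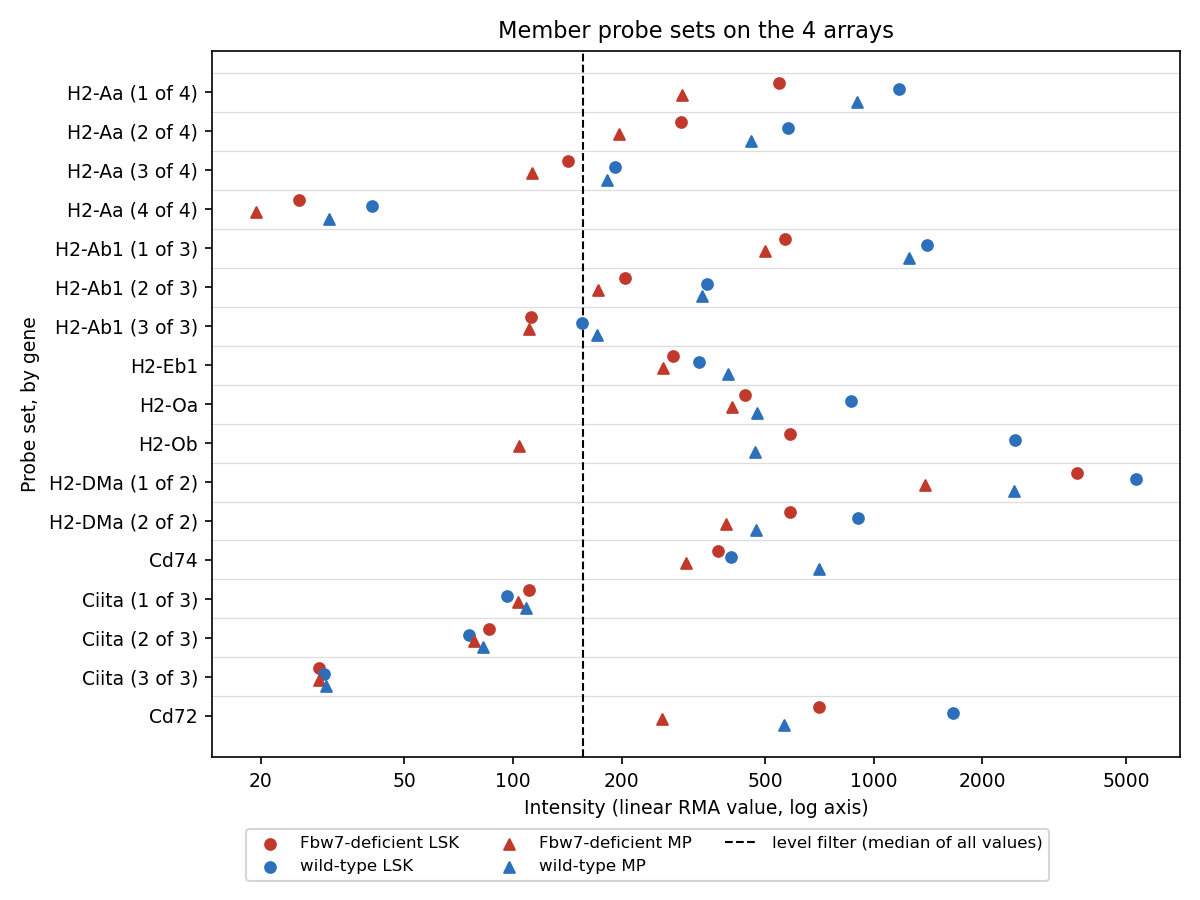
Intensity (linear RMA value, log axis) of all 17 member probe sets on the 4 arrays, with circles for LSK, triangles for MP, red for Fbw7-deficient and blue for wild-type; each point is 1 array, and probe sets of a gene are numbered by their mean. Both red points lie left of both blue points for H2-Aa, H2-Ab1, H2-Eb1, H2-Oa and Cd74, while the 3 probe sets of Ciita lie left of the dashed level filter with all 4 arrays close together.

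The classical chains of the I-A molecule showed the decrease in both populations. H2-Aa, the I-A alpha chain, read 546 in Fbw7-deficient LSK and 1172 in wild-type LSK, and 294 in Fbw7-deficient MP and 895 in wild-type MP, on its brightest probe set. It was 2.15-fold lower in LSK (log2 -1.10) and 3.05-fold lower in MP (log2 -1.61). Both Fbw7-deficient arrays lay below both wild-type arrays, and the lowest value was on the Fbw7-deficient MP array. The next probe set of H2-Aa gave log2 -0.99 and -1.22, another gave -0.43 and -0.69, and the dimmest, with no value above 40.6, gave -0.67 in both.

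H2-Ab1, the I-A beta chain that pairs with H2-Aa, read 568 in Fbw7-deficient LSK and 1407 in wild-type LSK, and 500 in Fbw7-deficient MP and 1248 in wild-type MP. It was 2.47-fold lower in LSK (log2 -1.31) and 2.50-fold lower in MP (log2 -1.32), so the genotype differences of the 2 populations were nearly equal. Its other probe sets gave smaller differences of the same sign, log2 -0.76 and -0.46 in LSK and -0.96 and -0.62 in MP, and those probe sets were dimmer. All probe sets of H2-Aa and 2 of the 3 of H2-Ab1 are of kinds marked on this platform as shared between related transcripts or cross-reacting (ending in s or x), so the signal of a related transcript cannot be told apart there.

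H2-Eb1, the beta chain of the I-E molecule, differed less. It read 277 in Fbw7-deficient LSK and 328 in wild-type LSK (log2 -0.24), and 261 in Fbw7-deficient MP and 395 in wild-type MP (log2 -0.60). In LSK 22.7% of all genes had a difference as low or lower, and in MP 5.09% did. The gene therefore stayed within 2-fold in both populations.

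H2-Ob, the beta chain of H2-O, had the largest genotype difference of the 9 genes in both populations. It read 584 in Fbw7-deficient LSK and 2461 in wild-type LSK, a 4.21-fold lower value (log2 -2.07) that ranked 11th from the lowest of 12240 genes. In MP it read 104 in Fbw7-deficient and 469 in wild-type cells (log2 -2.17, rank 9 from the lowest). The Fbw7-deficient MP value lies below the level filter, so the exact fold there is not established. A second probe set, annotated with both H2-Ob and Gm20506 and so outside the 17, differed far less: 232 in Fbw7-deficient LSK and 266 in wild-type LSK, and 181 in Fbw7-deficient MP and 208 in wild-type MP (log2 -0.20 in both). The size of the H2-Ob difference thus rests on 1 probe set. The labels of both probe sets have no mark for cross-reaction, so that mark does not tell which value to prefer.

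H2-Oa, the alpha chain that pairs with H2-Ob, was lower mainly in LSK. It read 438 in Fbw7-deficient LSK and 863 in wild-type LSK (log2 -0.98, just inside 2-fold), and 405 in Fbw7-deficient MP and 475 in wild-type MP (log2 -0.23). The wild-type LSK array stood above the 3 others, which lay close together. The partner chains H2-Oa and H2-Ob thus had different MP differences, log2 -0.23 and -2.17, with no error available for either.

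H2-DMa, the alpha chain of the peptide exchanger H2-DM, read 3662 in Fbw7-deficient LSK and 5319 in wild-type LSK (log2 -0.54). In MP it read 1382 in Fbw7-deficient and 2442 in wild-type cells (log2 -0.82). Its other probe set gave log2 -0.62 and -0.28, so the order of the populations turned with the probe set while the sign did not. The partner beta chain genes H2-DMb1 and H2-DMb2 share 2 probe sets, which gave log2 -0.31 and -0.42 in LSK and -0.57 and -0.49 in MP. The probe sets of H2-DMb2 alone were dim or near the filter, with differences between -0.10 and 0.07 in both populations.

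Cd74, the invariant chain, differed between genotypes mainly in MP. It read 370 in Fbw7-deficient LSK and 402 in wild-type LSK (log2 -0.12), and 301 in Fbw7-deficient MP and 707 in wild-type MP (log2 -1.23). Wild-type MP was the highest array and the 3 others were close. The LSK difference minus the MP difference was log2 1.11, the only one of the 8 past 2-fold in size, and it was not tested.

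Ciita, the coactivator of class II promoters, had no value above the level filter on any of its 3 probe sets. The brightest read 111 in Fbw7-deficient LSK and 96.3 in wild-type LSK, and 103 in Fbw7-deficient MP and 108 in wild-type MP. All 3 probe sets lay within log2 -0.05 to 0.20 in LSK and -0.08 to -0.07 in MP. At these intensities a difference of Ciita RNA was not detectable, and its level is not shown to be above background.

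Cd72, the inhibitory B cell receptor, was lower in Fbw7-deficient cells of both populations, as the other members above the level filter were. It read 703 in Fbw7-deficient LSK and 1652 in wild-type LSK (2.35-fold lower, log2 -1.23), and 258 in Fbw7-deficient MP and 563 in wild-type MP (2.18-fold lower, log2 -1.12). Both genotype differences were of like size, as for H2-Ab1. Between wild-type LSK and MP the 2 genes were unlike, with log2 1.55 for Cd72 and 0.17 for H2-Ab1. Of 8 measured genes of Cd72 partners and other inhibitory B cell receptors, none was 2-fold lower in LSK and 1, Blnk, in MP. Blnk, an adaptor of B cell receptor signalling, was over 2-fold higher in LSK, with 969 in Fbw7-deficient and 319 in wild-type cells. Sema4d, the ligand of Cd72, was at log2 -0.10 in LSK and 0.17 in MP.

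The comparison of LSK with MP cells of 1 genotype shows where the genes were highest. In Fbw7-deficient cells, H2-Ob (log2 2.49), Cd72 (log2 1.44) and H2-DMa (log2 1.41) were at least 2-fold higher in LSK than in MP, which 3.86% of all genes were. In wild-type cells the same 3 genes passed, at log2 2.39, 1.55 and 1.12, against 5.05% of all genes. No member was 2-fold lower in LSK in either genotype, against 1.63% of genes in Fbw7-deficient and 2.4% in wild-type cells. The I-A chains differed less between populations, H2-Ab1 by log2 0.18 in Fbw7-deficient and 0.17 in wild-type cells and H2-Aa by log2 0.90 and 0.39. H2-Eb1 and Cd74 were at log2 0.09 and 0.30 in Fbw7-deficient cells and at -0.27 and -0.81 in wild-type cells. H2-Oa, at log2 0.86 in wild-type cells, was at 0.11 in Fbw7-deficient cells.

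**Figure D3:**
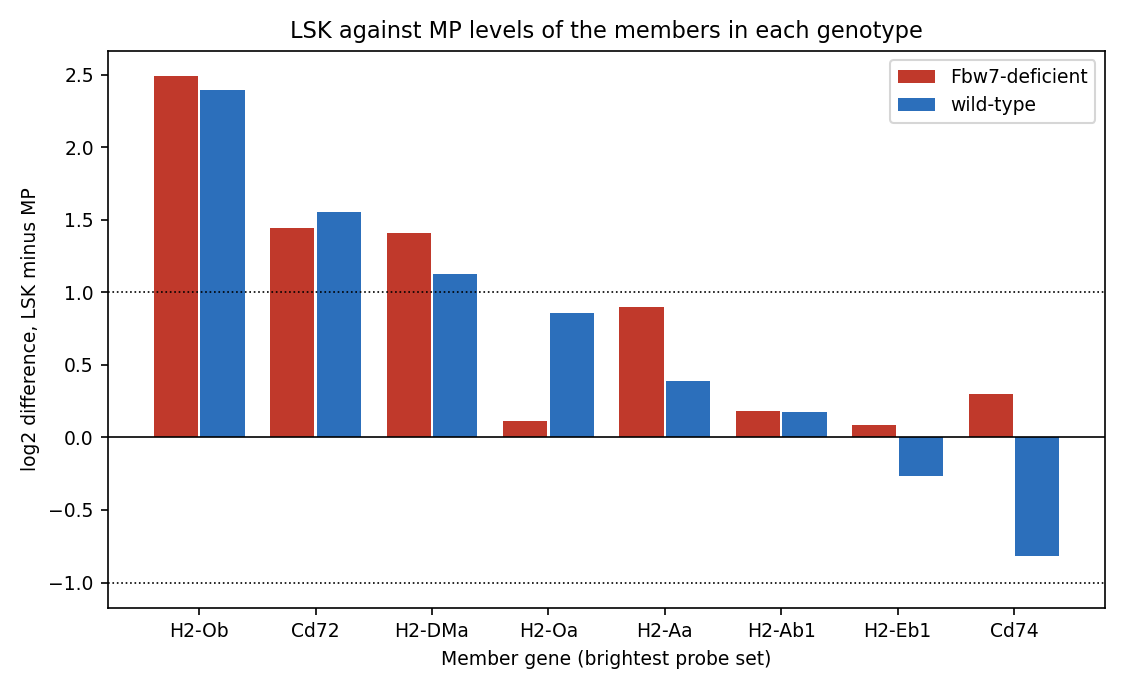
Log2 difference of LSK minus MP for the 8 members above the level filter (brightest probe set) in Fbw7-deficient (red) and wild-type (blue) cells, 1 array per population and genotype, with no error; dotted lines mark 2-fold. H2-Ob, Cd72 and H2-DMa pass 2-fold in both genotypes, while Cd74 stands at 0.30 and -0.81 and H2-Oa at 0.11 and 0.86.

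The place of the Fbw7-deficient LSK array divided the members. For H2-Ob, H2-DMa and Cd72 the Fbw7-deficient LSK value lay between those of wild-type LSK and wild-type MP. For H2-Aa, H2-Ab1, H2-Eb1, H2-Oa and Cd74 it lay below both wild-type arrays, which it did for 23.6% of all genes. For these 5 genes both Fbw7-deficient arrays were below both wild-type arrays, as for 12.4% of all genes. Wild-type LSK was the highest of the 4 arrays for 6 of 8 members, all but H2-Eb1 and Cd74, as for 34% of all genes. The Fbw7-deficient MP value was below both wild-type arrays, and the lowest of the 4, for 8 of 8 members, as for 35% and 30.9% of all genes. The LSK and MP markers moved with genotype in both populations. In LSK, 10 of 10 LSK markers were lower (median log2 -1.11) and 11 of 11 MP markers were higher (median log2 0.45) in Fbw7-deficient cells. In MP, 9 of 10 LSK markers were below 0 (median log2 -0.61) and 9 of 11 MP markers above 0 (median log2 0.16). Their part in the class II differences was not tested.

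Other class II chain genes with a probe set of their own differed less. H2-Ea read 789 in Fbw7-deficient LSK and 695 in wild-type LSK, and 934 in Fbw7-deficient MP and 845 in wild-type MP on its brightest probe set (log2 0.18 and 0.14). Its other probe sets had no value above 61, under the level filter, so the level of H2-Ea rests on that brightest probe set. H2-Eb2 was at log2 0.11 in LSK and -0.19 in MP. H2-DMb2 was at log2 -0.09 and 0.07. None of these 3 passed 2-fold in either direction.

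Most genes that cut antigen, degrade the invariant chain or move class II molecules lay on the other side in LSK. Of 17 measured, 14 were above 0 in LSK (median log2 0.36), where 49.2% of all genes were below 0. The other 3 were Sppl2a (log2 -0.30, and -0.66 in MP), Cst3 (-0.13) and Rab7 (-0.07). In LSK 2 of the 17 were at least 2-fold higher and none 2-fold lower, against 1.79% and 1.95% of all genes. Ctsh, a cathepsin, read 952 in Fbw7-deficient LSK and 442 in wild-type LSK (log2 1.11), and Ctsz, another cathepsin, read 6915 in Fbw7-deficient LSK and 3386 in wild-type LSK (log2 1.03). Ifi30, the thiol reductase of the antigen-processing compartment, read 1791 in Fbw7-deficient LSK and 897 in wild-type LSK, just under 2-fold. Ctss, a protease of invariant chain degradation, read 5668 in Fbw7-deficient LSK and 4054 in wild-type LSK (log2 0.48). In MP Ctss read 1914 in Fbw7-deficient and 3424 in wild-type cells (log2 -0.84). In MP the list had a median of log2 -0.08 and no gene past 2-fold.

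The factors that bind class II promoters differed by less than 2-fold. Of 11 measured, 8 were below 0 in LSK (median log2 -0.23) and 6 in MP (median log2 -0.03), and none passed 2-fold in either. Rfx5, the subunit of the X box factor, read 1758 in Fbw7-deficient LSK and 2817 in wild-type LSK (log2 -0.68), and 1293 in Fbw7-deficient MP and 1919 in wild-type MP (log2 -0.57). Its partners Rfxank and Rfxap were at log2 -0.54 and -0.28 in LSK and at 0.15 and 0.21 in MP. Crebbp, a histone acetyltransferase, was at log2 -0.57 and -0.31, and the NF-Y genes Nfya, Nfyb and Nfyc were at -0.23, 0.12 and -0.04 in LSK.

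The known regulators of Ciita had a median of log2 0.22 in LSK and -0.18 in MP over 14 measured genes. Irf8, a factor of dendritic and B cell development, was the only one 2-fold lower in MP, with 3318 in Fbw7-deficient MP and 9804 in wild-type MP (log2 -1.56), and was at log2 0.76 in LSK. Ebf1, a B cell factor, was the only one 2-fold higher in LSK (220 in Fbw7-deficient, 94.8 in wild-type cells, log2 1.22), with a wild-type value below the level filter. Irf1, which mediates interferon induction of Ciita, was at log2 -0.28 in LSK and -0.49 in MP, and Irf2 at -0.83 and -0.03. The interferon gamma receptor genes Ifngr1 and Ifngr2 were at log2 0.21 and 0.70 in LSK and at -0.30 and -0.31 in MP.

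Class I presentation genes, which serve cytotoxic T cells and lie partly in the same chromosomal region, differed by less than 2-fold. Of 17 measured, 11 were below 0 in LSK (median log2 -0.22) and 17 in MP (median log2 -0.34), and none passed 2-fold. H2-M3, a nonclassical class I gene, had the largest difference in both, log2 -0.98 and -0.88. The class I coactivator Nlrc5, a relative of Ciita, read 998 in Fbw7-deficient LSK and 1598 in wild-type LSK (log2 -0.68). H2-K1 was at log2 -0.45 in LSK and -0.48 in MP. Among costimulation genes, Cd274, which encodes PD-L1, was the only one of 6 past 2-fold, with 496 in Fbw7-deficient LSK and 1009 in wild-type LSK (log2 -1.03), and Icam1 was at -0.57 in LSK and -0.61 in MP.

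**Figure D4:**
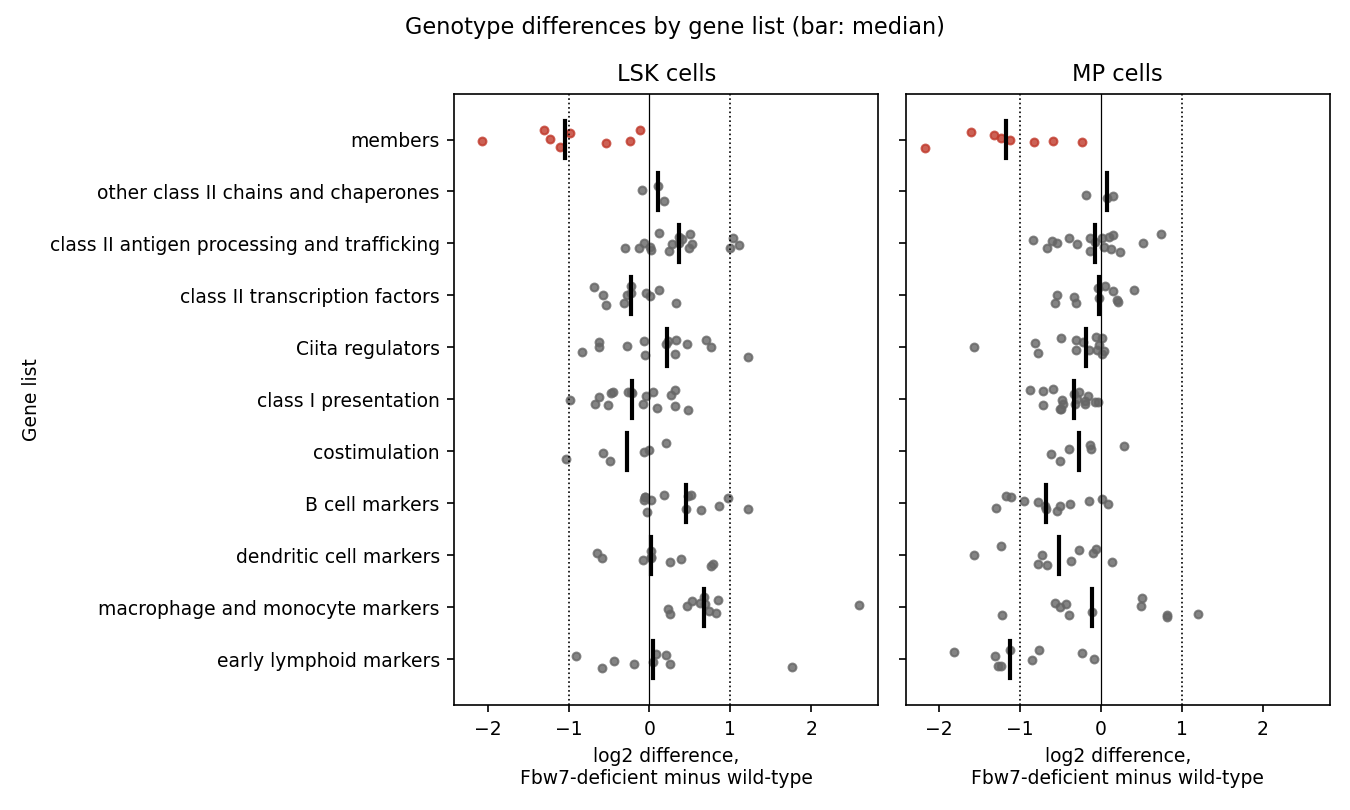
Log2 difference of Fbw7-deficient minus wild-type in LSK (left) and MP cells (right) for each measured gene of 11 gene lists, 1 point per gene and a black bar at the median; dotted lines mark 2-fold. The members have a median of -1.04 in LSK, while B cell and macrophage markers have medians of 0.45 and 0.67 there, and in MP the early lymphoid markers have a median of -1.12 beside the members' -1.18.

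Of the 9 genes, 6 lie together on chromosome 17, where the order in RefSeq is H2-Oa, H2-DMa, H2-Ob, H2-Ab1, H2-Aa and H2-Eb1, with Brd2, Psmb9, Tap1, Psmb8 and Tap2 among them. Ciita is on chromosome 16, Cd72 on chromosome 4 and Cd74 on chromosome 18. In a stretch of 26 protein-coding genes around the 6, 13 neighbours passed the level filter and none was 2-fold lower or higher in either population. Of all genes, 1.95% were 2-fold lower and 1.79% higher in LSK, and 1.49% and 0.825% in MP. A count of none in 13 is close to these shares. The medians of the neighbours were log2 -0.22 in LSK and -0.23 in MP. Below 0 were 9 of 13 in LSK and 11 in MP, against 49.2% and 50.4% of all genes. Tap1, Psmb8 and Tap2 precede H2-Ob in this order. The subunits of the class I peptide pump, Tap1 and Tap2, were at log2 -0.52 and -0.62 in LSK, and Psmb8, an immunoproteasome subunit gene between them, was at 0.27. Brd2, a bromodomain protein gene between H2-Oa and H2-DMa, was at -0.37 in LSK and -0.23 in MP.

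**Figure D5:**
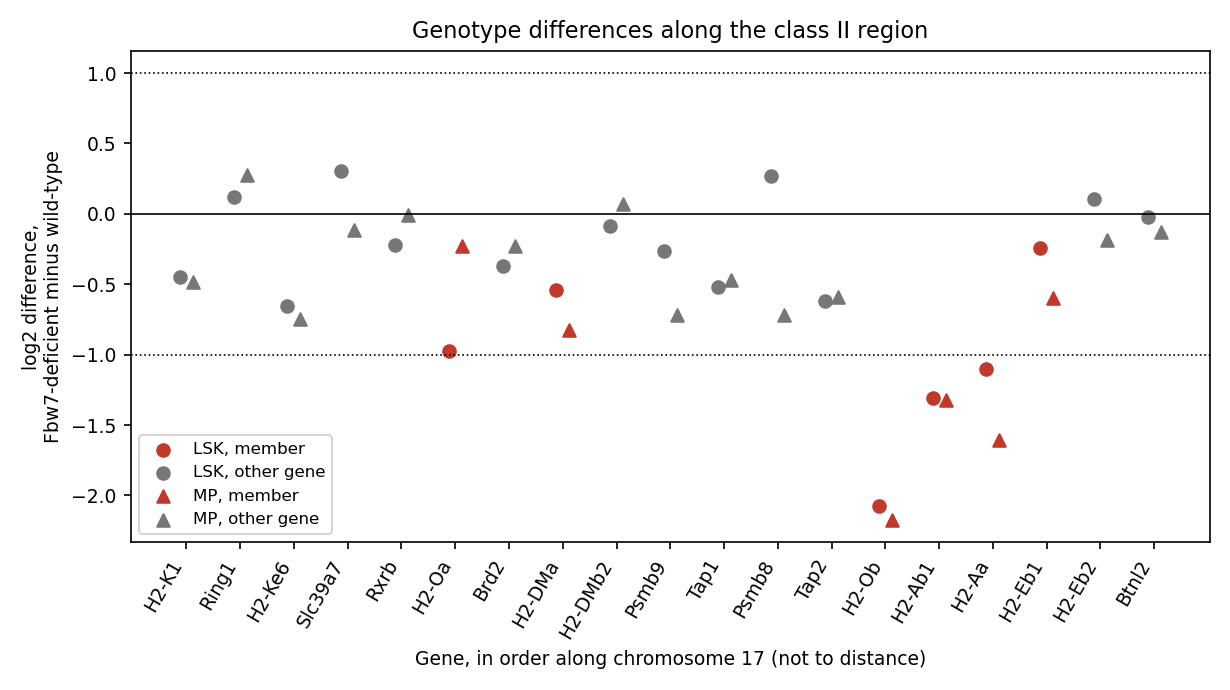
Log2 difference of Fbw7-deficient minus wild-type for genes in their order along chromosome 17 (equal spacing, not distance), with circles for LSK and triangles for MP, and red for members and grey for other genes above the level filter. The adjacent genes H2-Ob, H2-Ab1 and H2-Aa lie past 2-fold in both populations, and no grey point does. Of all genes 1.95% were 2-fold lower in LSK and 1.49% in MP, so a count of none is close to that share.

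Markers of cells that carry class II proteins moved differently in the populations. In MP, 11 of 13 measured B cell markers were below 0 (median log2 -0.68) and 3 were 2-fold lower: Ms4a1, which encodes CD20 (120 in Fbw7-deficient, 272 in wild-type MP), Vpreb1 and Ighm. Dendritic cell markers had a median of log2 -0.52 in MP, with 9 of 10 below 0 and 2 (Irf8 and Flt3) 2-fold lower, and early lymphoid markers had a median of -1.12, with 9 of 9 below 0 and 5 2-fold lower. In LSK the medians were above 0: B cell markers had a median of 0.45 with 9 of 13 above 0, dendritic markers 0.02 and early lymphoid markers 0.04. The summed intensity of the B cell list was 15168 in Fbw7-deficient LSK and 11388 in wild-type LSK, and 5607 in Fbw7-deficient MP and 10152 in wild-type MP. Ighm alone contributed 10544.5 in Fbw7-deficient LSK and 7738 in wild-type LSK, and 2718 in Fbw7-deficient MP and 5850 in wild-type MP. The summed intensity of the dendritic list was 17856 in Fbw7-deficient LSK and 17483 in wild-type LSK, and 6390 in Fbw7-deficient MP and 14254 in wild-type MP. Irf8 alone contributed 8366 in Fbw7-deficient LSK and 4955 in wild-type LSK, and 3318 in Fbw7-deficient MP and 9804 in wild-type MP. The dendritic markers Flt3 and Tcf4 were at log2 -0.59 and -0.65 in LSK.

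Macrophage and monocyte markers were all above 0 in LSK (11 of 11, median log2 0.67), where Ccr2 was 2-fold higher, and mixed in MP (5 of 11 above 0, median -0.12), where C1qb was 2-fold higher (log2 1.20) and Csf1r 2-fold lower (log2 -1.22). Their summed intensity was 10808 in Fbw7-deficient LSK and 5169 in wild-type LSK, and 7158 in Fbw7-deficient MP and 10210 in wild-type MP. Csf1r and Ccr2 contributed 4281 and 3476 of it in Fbw7-deficient LSK and 2567 and 578 in wild-type LSK. In MP these genes contributed 2410 and 1208 in Fbw7-deficient cells and 5624 and 1593 in wild-type cells. Of the markers on the array, 13 of 15 B cell markers passed the level filter, all but Cr2 and Fcer2a, and 10 of 15 dendritic cell markers did, all but Batf3, Ccr9, Cd209a, Siglech and Xcr1. The values do not give shares of cells, and the part of such cells in the class II differences was not tested.

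The average profile of the 3 classical chains H2-Aa, H2-Ab1 and H2-Eb1 over the 4 arrays was set against every other gene above the filter by Euclidean distance of log2 values centred on each gene's mean. The 5 nearest genes were Gpr18, Arap2, Gm2629, Oxct1 and Gpr65, at distances from 0.14 to 0.23. Gpr18, a G protein-coupled receptor gene, read 215 in Fbw7-deficient LSK and 408 in wild-type LSK, and 152 in Fbw7-deficient MP and 340 in wild-type MP. Oxct1, a ketone body enzyme gene, read 4272 in Fbw7-deficient LSK and 9463 in wild-type LSK, and 3182 in Fbw7-deficient MP and 7800 in wild-type MP. The likeness is over 4 arrays and is a description. Of the members that did not enter the profile, H2-Oa lay at a distance of 0.71, with 593 of the 12232 other genes as near or nearer, and Cd74 at 0.74, with 724. H2-DMa (1.08, with 5134 genes), Cd72 (1.28, with 9165) and H2-Ob (2.46, with 12058) lay farther off.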

How the data were processed

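RNA of 4 sorted marrow populations, 20 ng each and amplified in a 2-cycle protocol per the labels, was measured on 1 array each. The deposited intensity values are linear. The submitters' processing notes name RMA, with neither software, version nor settings given. RMA makes array distributions equal, so a shift common to most genes is lost, and differences of dim genes are compressed. Intensities were taken to log2 and subtracted with Python 3.11.15, numpy 2.4.6 and pandas 2.3.3. Of 45101 probe sets, 34958 name 1 gene, 932 several and 9211 none in the annotation table used; 34754 symbols were updated by gene ID to RefSeq (GRCm38.p6). Each gene was represented by its brightest probe set (mean log2 over 4 arrays), and passed where its highest value reached 157. No test was made, since each group has 1 array. Named genes are the 9 members, list genes past 2-fold on a probe set above the filter, up to 4 per list otherwise, other class II chains, neighbours by gene order and the 5 genes nearest in profile; the other genes named were chosen after their values were seen. The members and gene lists were chosen with earlier results of these data known. The procedure was run on simulated arrays with built-in shifts larger than 2-fold, given alike to all probe sets of a gene. That run checks the calculation only and does not show how firm the differences between the real arrays are. LSK and MP comparisons of a genotype share arrays with the genotype comparisons. Some list genes are not reported here.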

Additional observations from a re-analysis of the deposited data

Results flagged for a closer look

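Genes of the lists that were at least 2-fold different in 1 genotype comparison, and whose differences in LSK and MP had opposite signs and lay at least log2 1 apart, are given with the LSK difference minus the MP difference; the contrast of these single arrays was not tested. No member met this. Among B cell and lymphoid genes it was 2.81 for Blnk, 1.99 for Ebf1, 2.16 for Vpreb1, 1.55 for Ighm, 2.88 for Rag1 and 1.53 for Dntt, each above 0 in LSK and below 0 in MP. Among antigen-processing and myeloid genes it was 1.71 for Ctsh, 1.57 for Ctsz, 2.32 for Irf8, 1.96 for Csf1r, 2.99 for Ccr2, 1.42 for Cebpa and 3.07 for Elane, in the same directions. Mllt3, a stem cell marker, ran the other way, at -1.26. Some of these values lie under the level filter, so their exact size is not established: Ebf1 on the 3 arrays other than Fbw7-deficient LSK, and Rag1 in Fbw7-deficient MP.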

How the results depend on the processing

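No paired analysis was possible because each group holds 1 array. Each setting was changed alone, in 7 alternatives. Of 91 recomputed counts and medians over the members, 88 stayed within 1.5 times of the value reported, with medians compared as ratios of intensity, and no member difference was reversed. These 91 hold counts that were 0 in the main setting and in every alternative. Changing the level filter leaves each member's own values as they were, and a count going from 5 to 4 or from 4 to 3 stayed within the limit. So 88 of 91 does not measure how firm the calls are. With the mean of all probe sets, 2 of 8 members (H2-Ob and Cd72) were 2-fold lower in LSK, in place of 4, because H2-Aa and H2-Ab1 were averaged with dimmer probe sets (log2 -0.80 and -0.84), and 4 in MP, in place of 5. Without probe sets ending in s, x or a, 4 members above the filter were left (H2-Eb1, H2-Oa, H2-Ob and H2-DMa). Of these, 1 was 2-fold lower in LSK and 1 in MP, against 1.94% and 1.54% of all genes under that setting. H2-Aa, H2-Ab1, Cd74 and Cd72 have no other probe set. With arrays centred on their medians, H2-Oa passed as well and 5 members were 2-fold lower in LSK, against 2.13% of all genes. A further alternative, chosen after seeing the data, took H2-Ob from its probe set that names 2 genes. The log2 differences of H2-Ob were then -0.20 in LSK, -0.20 in MP, 0.36 between Fbw7-deficient populations and 0.35 between wild-type populations. The 2-fold lower members then numbered 3 in LSK and 4 in MP, against 1.94% and 1.48% of all genes. On the log2 scale, the member medians ran from -1.07 to -0.76 in LSK, from -1.18 to -0.71 in MP, from 0.30 to 0.76 between Fbw7-deficient populations and from 0.37 to 0.99 between wild-type populations, and the LSK minus MP median from 0.11 to 0.27. Over all genes, 2-fold lower calls in LSK were 133 of 10925 with probe set means, against 239 of 12240, and in MP 104 against 182, while 2-fold higher calls were 67 against 101 in MP and 386 against 618 between wild-type LSK and MP. Signal limits Ciita and the Fbw7-deficient MP value of H2-Ob, which lie under the level filter. Without replicates no difference can be set against the spread between mice.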
